A study of Gallus gallus and Dromaius novaehollandiae with 14 samples.

Results

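Epidermis of chicken feather placodes was compared with epidermis of chicken scutate scale placodes, using 4 of the 14 libraries of a study of chicken and emu embryonic skin. The feather group held 2 libraries from embryos at Hamburger and Hamilton stages 33 to 34, and the scutate scale group held 2 libraries at stage 37. The stages are steps of a standard series of chick development. Eggs of both groups were kept at 37.8 °C, and no genetic change or drug treatment is named for any group. Each library is a separate biological replicate by the study's design text. The other 10 libraries came from chicken reticulate scale (stage 39) and claw (stage 36), with 2 libraries each, and from the emu, with 2 libraries of feather, 2 of scutate scale, 1 of reticulate scale and 1 of claw. Emu eggs were kept at 35.5 °C, and the emu stages match those of the chicken tracts. Appendage and stage changed together, so a difference between feather and scutate scale is a difference between an earlier and a later embryo as well, and these cannot be told apart.

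Feathers and scutate scales both start as placodes, local thickenings of the epidermis that form in dialogue with the dermis beneath. The feather placode grows out into a cylindrical bud and later branches into barbs. The scutate scale is a flat, overlapping plate on the front of the shank and toes. WNT, ectodysplasin, fibroblast growth factor, bone morphogenetic protein and hedgehog signals are known to pattern avian placodes. The deposited table lists genes by Ensembl chicken ID and pairs no ID with a name, and 0 of its 8751 IDs could be matched to a symbol in the RefSeq table used here. Members of those pathways, and markers of keratinocytes or of other skin cells, could therefore not be looked up. Genes are described by ID, level and pattern alone.

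Expression is given as TPM, a transcript abundance scaled by length and by the total of its library. The TPM of the listed genes summed to 539494 and 575133 in the feather libraries, against 552500 and 563152 in the scutate scale libraries. The number of genes listed at 0 was 701 and 738 in feather and 908 and 911 in scutate scale, so fewer genes were at 0 in both feather libraries. TPM does not keep the read depth, which is unknown, and the number of libraries limits the precision. In bulk tissue, fewer cells of a type and less RNA per cell cannot be told apart. Tests covered the 6790 genes with 1 TPM or more in 2 or more of the 4 libraries. Just inside that limit, ENSGALG00000017044 had a TPM of 0.418 and 0.477 in feather and 1.51 and 1.001 in scutate scale. Just outside it, ENSGALG00000008109 had 0.998 and 1.02 in feather and 0.891 and 0.511 in scutate scale.

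More genes were higher than lower in feather. The limma test, at a Benjamini-Hochberg adjusted p under 0.05, called 801 of the 6790 genes (11.8%), of which 534 (7.86%) rose and 267 (3.93%) fell in feather relative to scutate scale. The median difference in log2(TPM + 1), feather minus scutate scale, was 1.19 for the genes that rose, -1.01 for those that fell and 0.05 over all genes tested. A difference of at least 1 log2 unit was reached by 333 of the genes that rose and 139 of those that fell, and of at least 3 by 31 and 14. The genes that rose were less abundant, with a median TPM of 12.3 over the 4 libraries, against 23.4 for those that fell and 26.9 over all genes tested. Quantile normalization gave 399 higher and 352 lower calls, so the share higher was 53.1% in place of 66.7%, and median-ratio rescaling gave 474 and 322 (59.5%). The count fell to 324 without feather replicate 1, 273 without feather replicate 2, 538 without scutate scale replicate 1 and 441 without scutate scale replicate 2.

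**Figure D1:**
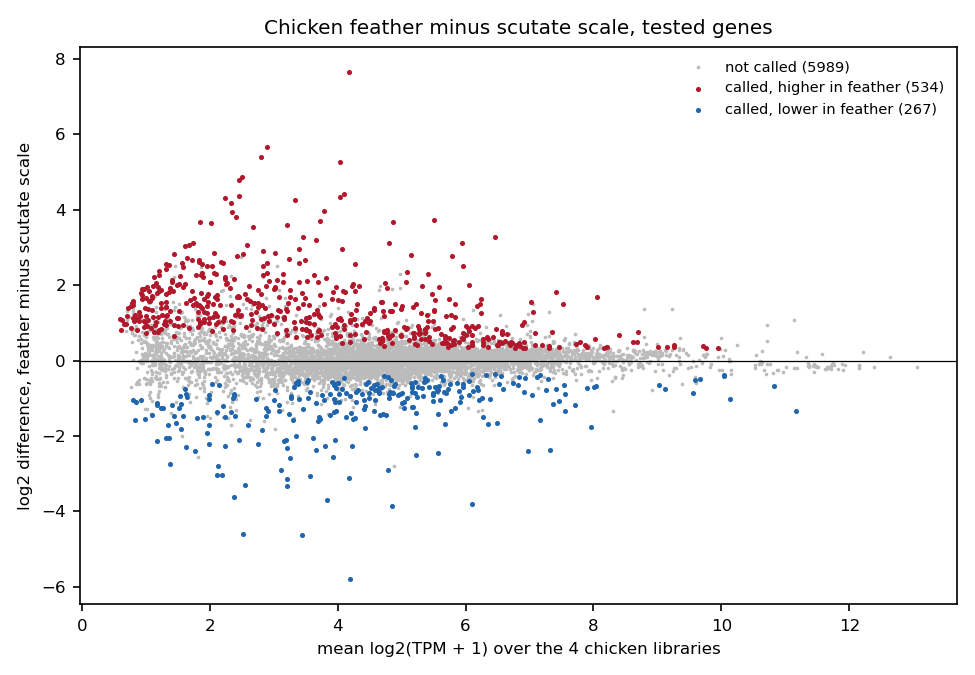
Feather minus scutate scale difference in log2(TPM + 1) (vertical axis) against the mean log2(TPM + 1) of the 4 chicken libraries (horizontal axis), 1 point per tested gene. Red points are the 534 genes called higher in feather, blue points the 267 called lower, and grey points the genes not called; the widest differences lie at low and middle levels.

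The genes called in either direction held a small share of the listed transcripts. Genes called higher in feather made up 5.22% and 5.23% of the listed TPM in the feather libraries, against 2.94% and 2.90% in the scutate scale libraries. Genes called lower in feather made up 2.71% and 2.65% in feather, against 5.03% and 5.27% in scutate scale. The share of genes called was highest at low levels. Below a mean TPM of 5, 22.5% of 948 genes were called, 169 higher and 44 lower in feather. A low gene can pass the filter through its higher side alone, which favours genes that differ, and the part of this in the share was not tested. At all levels, 125 genes called higher and 31 called lower were under 1 TPM in both libraries of the lower side. From 20 to 100 TPM the calls were 8.90% of 3112 genes, of which 164 were higher in feather. Above 500 TPM they were 11.7% of 145 genes, 7 higher and 10 lower. The median absolute log2 difference of the called genes was 1.42 below a TPM of 5, 0.86 between 20 and 100, and 0.42 above 500.

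The feather and scutate scale libraries did not overlap in 4170 of the 6790 genes (61.4%), with 2421 (35.7%) higher and 1749 (25.8%) lower in feather. All 801 called genes were among them. The groups were at least 1 log2 unit apart, from the nearest library on one side to the nearest on the other, in 283 genes with feather higher and 108 with feather lower. Between replicates, the log2 difference had an SD over genes of 0.27 in feather and 0.43 in scutate scale. The SD of the feather minus scutate scale difference was 0.66. The replicate values compare single libraries and the last compares means of 2 libraries, so they are not on one footing. The balance of genes without overlap depended on scaling. With median-ratio rescaling 4193 genes did not overlap, and 2027 of them were lower in feather, so the excess of genes higher in feather was much smaller. With 2 libraries a side, part of the genes lie apart by chance alone, and that share is not given here.

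The 12 genes that rose most in feather differed by 4.18 to 7.65 in log2(TPM + 1), and 8 of them were under a TPM of 1 in both scutate scale libraries. They were chosen for the size of this difference. The gene with the largest difference was ENSGALG00000007466, with a TPM of 225 and 289 in the feather libraries, against 0.587 and 0.028 in the scutate scale libraries. Its log2 difference was 7.65 (SE 0.45, limma adjusted p 2.58e-05). Both feather libraries placed it among abundant genes, where its mean ranked 311 of the 6790 tested, against rank 6707 in scutate scale. ENSGALG00000003957 had a TPM of 39.1 and 69.0 in feather, against 0.095 in scutate scale replicate 1 and a listed 0 in replicate 2. Its difference was 5.66 (SE 0.36, limma adjusted p 3.63e-05). A near-complete contrast of this kind was also seen for ENSGALG00000015487, at 40.4 and 49.1 TPM in feather and 0.127 and 0.017 in scutate scale (difference 5.41, SE 0.54, limma adjusted p 0.000442).

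The other 9 of these 12 genes differed in how even they were and in how low they fell in scutate scale. ENSGALG00000016943 was tight within groups, at 24.3 and 23.9 TPM in feather and 0.238 and 0.195 in scutate scale, and had the smallest SE of the 12 (difference 4.37, SE 0.18, limma adjusted p 3.79e-06). ENSGALG00000011264, at 101.8 and 101.5 TPM in feather and 3.39 and 0.601 in scutate scale, differed by 5.27 (SE 0.46). Both genes were clearly present in feather and low in scutate scale, although the scutate scale libraries of the second were unequal. ENSGALG00000008263 kept a low level in scutate scale, at 2.11 and 3.27 TPM, against 76.8 and 67.8 in feather, a 26.9-fold ratio of mean TPM. ENSGALG00000016575 did likewise, at 39.2 and 47.4 TPM in feather and 1.61 and 0.997 in scutate scale, a 33.2-fold ratio. ENSGALG00000010949 was the least even, at 54.6 and 111 TPM in feather and 0.660 and 7.36 in scutate scale. Its difference of 4.41 (SE 0.91, limma adjusted p 0.0149) was no longer called without feather replicate 2 (3.90, adjusted p 0.12) or without scutate scale replicate 1 (3.24, adjusted p 0.0843). The other 11 were called without any single one of the 4 libraries. The remaining members, ENSGALG00000015205, ENSGALG00000012290, ENSGALG00000016899 and ENSGALG00000006905, had 16.2 to 50.0 TPM in feather and at most 0.277 in scutate scale. With a pseudocount of 0.1 in place of 1 the difference became 8.54 for ENSGALG00000003957, 7.67 for ENSGALG00000015205, 7.70 for ENSGALG00000012290 and 7.07 for ENSGALG00000016899, so the pseudocount sets the size of these values.

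**Figure D2:**
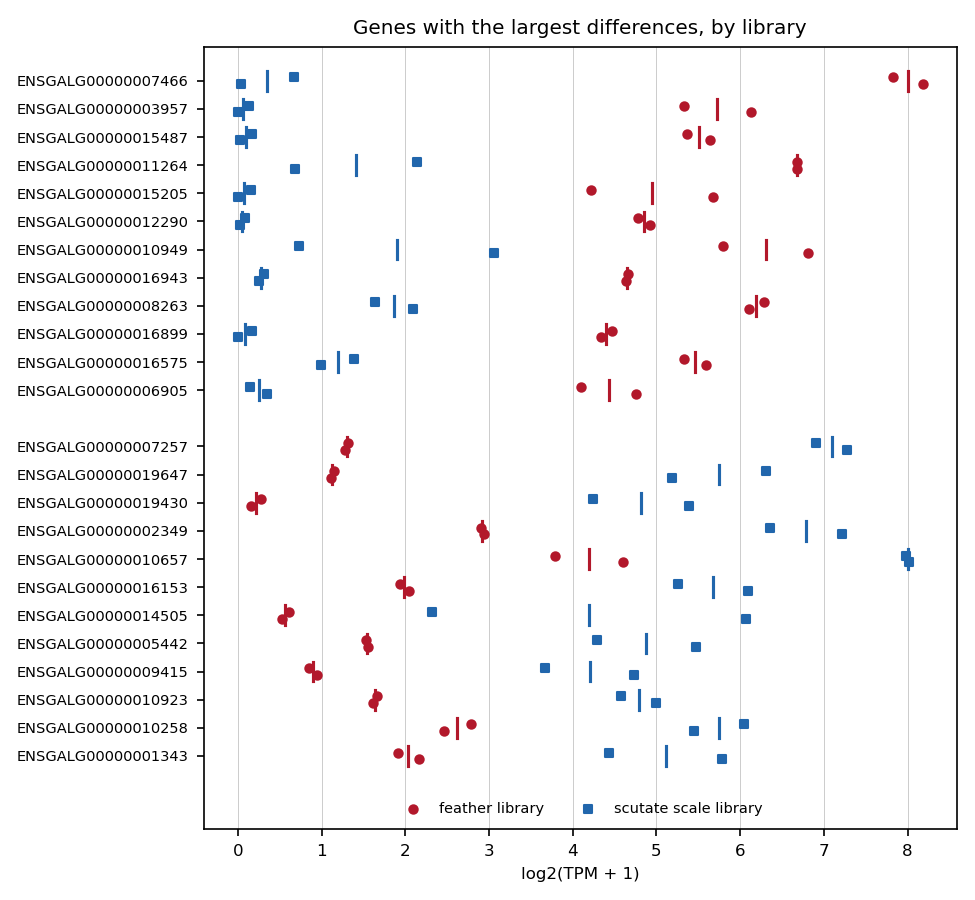
Log2(TPM + 1) in each library for the 12 genes that rose most in feather (upper block) and the 12 that fell most (lower block). Red circles are the 2 feather libraries, blue squares the 2 scutate scale libraries, and short vertical lines their means; in all 24 genes the groups do not overlap.

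The 12 genes that fell most in feather differed by between -3.07 and -5.79, and all of them were above a TPM of 1 in both scutate scale libraries. ENSGALG00000007257 had a TPM of 1.49 and 1.43 in feather, against 119 and 154 in scutate scale, which is a 93.4-fold ratio of mean TPM with scutate scale higher. Its log2 difference was -5.79 (SE 0.22, limma adjusted p 2.57e-06). In both groups its replicates lay close together. ENSGALG00000019647 had 1.21 and 1.16 TPM in feather and 78.2 and 35.5 in scutate scale (difference -4.62, SE 0.38, limma adjusted p 0.000174). ENSGALG00000002349 had 6.46 and 6.65 TPM in feather and 80.9 and 148 in scutate scale (difference -3.87, SE 0.35). ENSGALG00000010657 was the most abundant of the 12 in scutate scale, at 251 and 259 TPM, against 12.8 and 23.3 in feather. Its difference was -3.80 (SE 0.45, limma adjusted p 0.00108), and the feather replicates were less alike than the scutate scale ones.

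Several of the genes that fell were uneven in scutate scale while nearly equal in feather. ENSGALG00000014505 had 0.522 and 0.447 TPM in feather and 3.99 and 66.0 in scutate scale. Its difference of -3.62 (SE 0.99, limma adjusted p 0.0457) became -1.75 without scutate scale replicate 2 (adjusted p 0.152) and -5.50 without replicate 1 (adjusted p 0.0022). It was also not called without feather replicate 1 (-3.66) or feather replicate 2 (-3.59). The call was lost as well with the 4 libraries alone (SE 1.25, limma adjusted p 0.146) and in chicken without claw (SE 1.08, limma adjusted p 0.0846). ENSGALG00000019430, at 0.208 and 0.118 TPM in feather and 17.9 and 41.0 in scutate scale, differed by -4.60 (SE 0.83, limma adjusted p 0.00764). That call was lost without feather replicate 2 (-4.54) and without scutate scale replicate 2 (-4.02). It was kept with the 4 libraries alone (SE 0.41, limma adjusted p 0.0117) and in chicken without claw (SE 0.54, limma adjusted p 0.00605). The claw libraries, which enter the SE of 0.83, had 84.7 and 690 TPM. The other 10 genes kept their calls without any single one of the 4 libraries. The other 6 of the 12 had 0.809 to 5.88 TPM in feather and 11.7 to 67.6 in scutate scale. Scutate scale replicate 2 was the higher of the pair in 5 of these 6, the exception being ENSGALG00000010258 with 65.0 and 42.6 TPM.

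Between feather and scutate scale, genes on in one and off in the other were mostly on in feather. Taking on as a TPM of at least 1 in both libraries and off as under 0.1 in both, 26 of the 8751 listed genes (0.297%) were on in feather and off in scutate scale, and 2 (0.0229%) were on in scutate scale and off in feather. Most were at low levels, since the mean feather TPM of the 26 had a median of 2.88 and was at least 5 in 7 of them. The scutate scale libraries also had more listed genes at 0 (908 and 911) than the feather libraries (701 and 738). The part of this in the imbalance was not tested. The limma test called 25 of the 26 and both scutate scale genes, against 11.8% of all genes tested. These genes were chosen by their values in the same 4 libraries, so the calls follow from the choice and add no support. Among the other chicken tracts, 10 of the 26 were at 1 TPM or more in at least 1 reticulate scale or claw library (5 in reticulate scale, 8 in claw). In both libraries of a tract, 3 reached 1 TPM in reticulate scale and 0 in claw, where the 8 did so in replicate 2 alone. Only 1 of the 26 was under 0.1 in all 4 of these libraries. Counts of this kind depend on the limits set: 5 genes were left with on at a TPM of 5, 3 with off as a listed 0, and 118 with off as under 0.5. Leaving out scutate scale replicate 1 gave 55 genes, and leaving out any other of the 4 libraries gave 40 or 41. A library left out can only add genes to this count.

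The most abundant of the 26, ENSGALG00000003957 and ENSGALG00000012290, were also among the 12 largest differences. The third was ENSGALG00000004909, at 10.2 and 13.8 TPM in feather and listed at 0 in both scutate scale libraries. Its log2 difference was 3.69 (SE 1.03, limma adjusted p 0.0482). Leaving out any single one of the 4 libraries ended the call, with differences of 3.48 to 3.89, and 10 of 17 alternatives lost it. The call was kept with the 4 libraries alone (SE 0.21, limma adjusted p 0.00803) and in chicken without claw (SE 0.35, limma adjusted p 0.00366). The SE of 1.03 was estimated over all groups with 2 libraries, and the chicken claw libraries had 0.571 and 28.2 TPM. ENSGALG00000005246 followed, at 5.10 and 7.63 TPM in feather and 0.043 and 0 in scutate scale (difference 2.83, SE 0.29, limma adjusted p 0.000524). ENSGALG00000012456 had unequal feather libraries, at 1.27 and 10.2 TPM, and 0 and 0.097 in scutate scale. Its difference of 2.27 (limma adjusted p 0.0432) was 1.12 without feather replicate 2 (adjusted p 0.192) and 3.42 without feather replicate 1 (adjusted p 0.0032). The call was also lost without scutate scale replicate 1 and without scutate scale replicate 2. With the 4 libraries alone and in chicken without claw it was lost as well. On the other side, ENSGALG00000010773 was listed at 0 in both feather libraries and had 5.43 and 6.12 TPM in scutate scale (difference -2.76, SE 0.22, limma adjusted p 0.000137). ENSGALG00000011973 had 0.025 and 0.029 TPM in feather and 1.75 and 2.48 in scutate scale (difference -1.59, SE 0.23, limma adjusted p 0.00276). The gene not called, ENSGALG00000014744, had 1.49 and 1.64 TPM in feather and 0 and 0.063 in scutate scale (limma adjusted p 0.236), while the chicken claw libraries had 0 and 5.02 TPM.

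**Figure D3:**
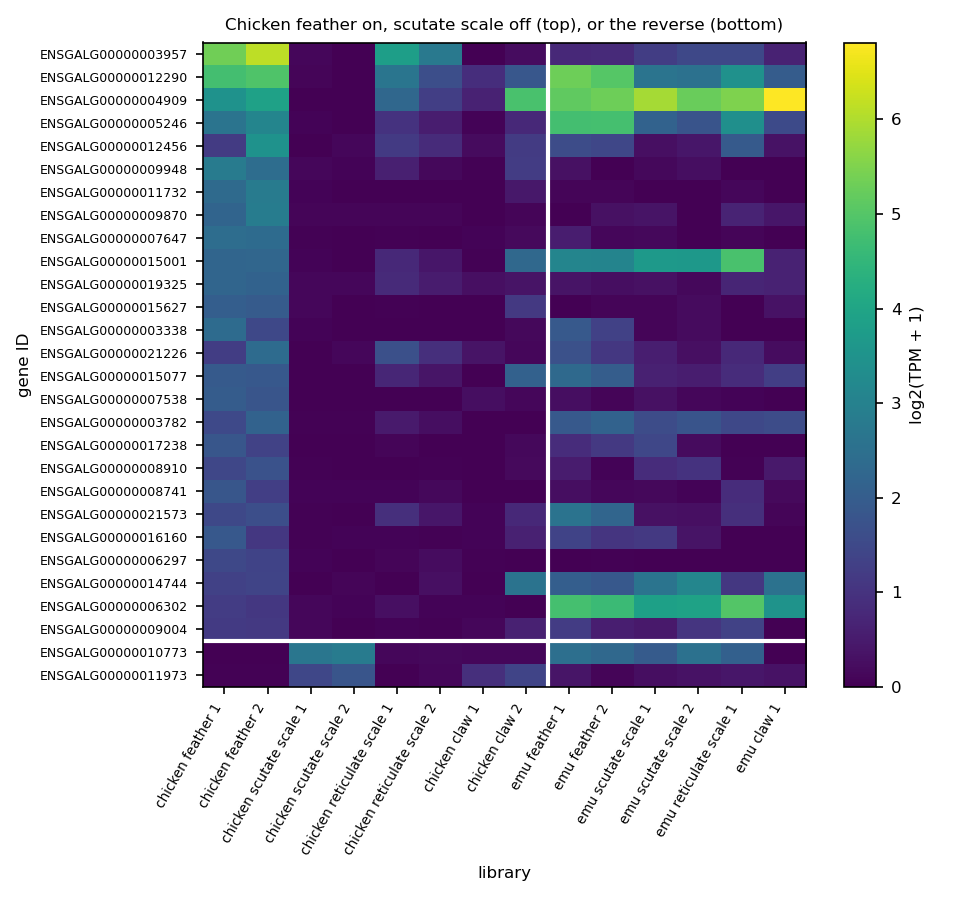
Log2(TPM + 1), as colour, of the 26 genes on in chicken feather and off in chicken scutate scale (above the white horizontal line, by falling mean feather TPM) and the 2 with the reverse (below it), in all 14 libraries. The white vertical line parts the chicken libraries (left) from the emu libraries (right); several of the 26 are above 1 TPM in emu scutate scale.

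Among the most abundant genes the differences were small. The 5 called genes of highest mean TPM that rose differed by 0.32 to 0.42 in log2(TPM + 1). ENSGALG00000014381 had 684 and 706 TPM in feather and 522 and 555 in scutate scale (difference 0.37, SE 0.07, limma adjusted p 0.00982). The others were ENSGALG00000022539, ENSGALG00000013537, ENSGALG00000010410 and ENSGALG00000007442, with 1.25- to 1.33-fold ratios of mean TPM. All 5 lost the call without feather replicate 1 and without feather replicate 2, and all but ENSGALG00000014381 also without scutate scale replicate 1. The value of ENSGALG00000022539 was then 0.21, in place of 0.32.

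The 5 most abundant called genes that fell included larger differences. ENSGALG00000009641 had 1360.2 and 1549 TPM in feather, against 4078 and 3298 in scutate scale, a 2.54-fold ratio of mean TPM with scutate scale higher, and ranked 59 in feather and 13 in scutate scale (difference -1.34, SE 0.37, limma adjusted p 0.046). Its adjusted p was up to 0.204 when any single one of the 4 libraries was left out. ENSGALG00000003770 had 723 and 872 TPM in feather and 1436 and 1786 in scutate scale (difference -1.01, SE 0.18, limma adjusted p 0.00695), a call lost without feather replicate 1 and without scutate scale replicate 2, with adjusted p up to 0.0647. ENSGALG00000002377 had 1322 and 1526 TPM in feather and 2150 and 2428 in scutate scale (difference -0.69, SE 0.16). ENSGALG00000012172 and ENSGALG00000002030 differed by -0.40 each. These last 3 lost their calls when any single one of the 4 libraries was left out, with adjusted p up to 0.309.

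The other chicken tracts place these genes. Of the 534 genes that rose in feather, 389 (72.8%) had both feather libraries above all 6 other chicken libraries, against 21.5% of all genes tested, and 94 (17.6%) had both scutate scale libraries below all 6 others, against 3.23%. Of the 267 that fell, 47.2% had both feather libraries below all 6 others, against 5.30%, and 76 (28.5%) had both scutate scale libraries above all 6 others, against 5.92%. The calls were made on the same feather and scutate scale libraries, so these shares lie above those of all genes by selection and are a description. The chicken claw libraries had a lower median TPM over the tested genes, at 18.1 and 20.1, than the other chicken libraries, at 25.1 to 27.5, and the part of this in the shares was not tested.

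In reticulate scale, 9 of the 12 genes that rose most in feather were at 1 TPM or more in both libraries and above both scutate scale libraries. The 12 were chosen by a difference that favours low scutate scale values, so lying above scutate scale partly follows from the choice. ENSGALG00000007466 had 53.6 and 26.5 TPM in reticulate scale and ENSGALG00000010949 had 94.3 and 53.1, so the second was near its feather level. The exceptions were ENSGALG00000011264, at 0.047 and 0.085 TPM, ENSGALG00000016943, at 0 and 0.107, and ENSGALG00000008263, at 2.04 and 0.868. ENSGALG00000016943 was also listed at 0 in both claw libraries, so its highest TPM in any chicken library outside feather was 0.238. ENSGALG00000016575 was nearly as high in claw (34.2 and 32.4 TPM) as in feather. Of the 12 genes that fell most, all were above 1 TPM in both reticulate scale libraries and 11 in both claw libraries. Such a level is common. Of the 8751 listed genes, 6639 and 6564 were at 1 TPM or more in the reticulate scale libraries, and 6454 and 6819 in the claw libraries. Of the 12 genes that fell most, 6 had both reticulate scale libraries above both scutate scale libraries. In claw, 4 of the 12 did so. ENSGALG00000010923, at 2.16 and 2.06 TPM in feather and 22.9 and 30.9 in scutate scale, reached 235 and 151 in reticulate scale and 631 and 490 in claw. ENSGALG00000002349 reached 758 and 1566 TPM in claw, above its scutate scale level, while ENSGALG00000010657 was low in claw, at 20.5 and 5.99.

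**Figure D4:**
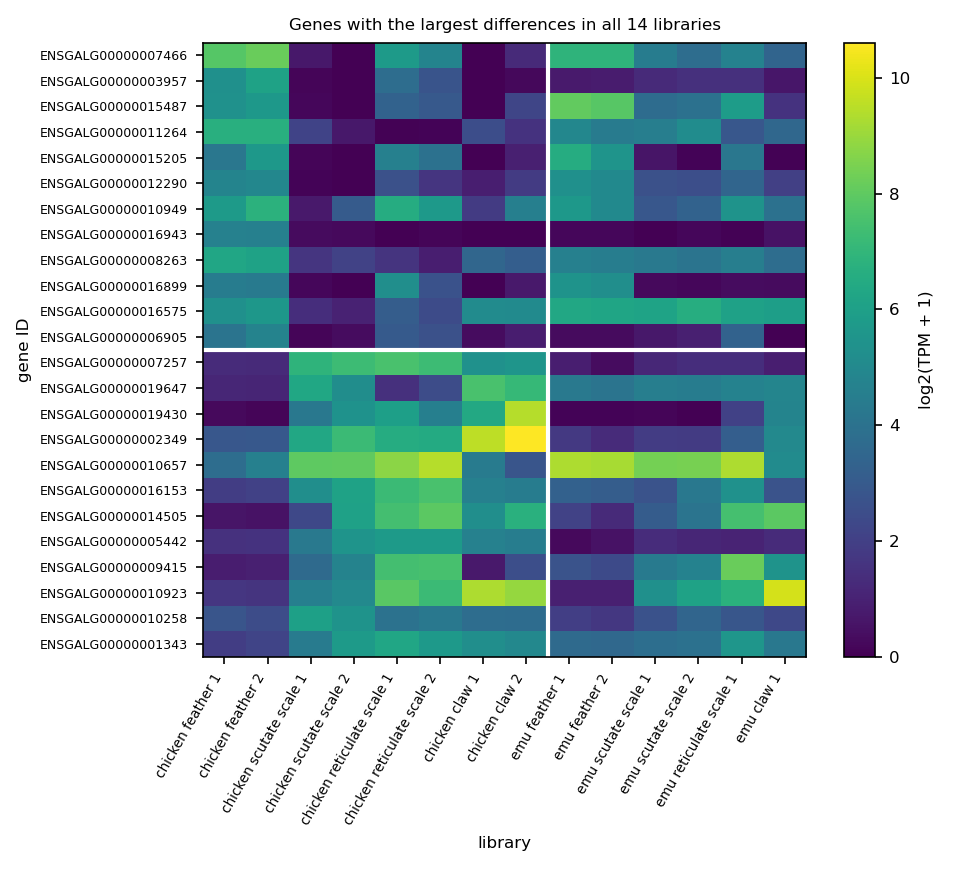
Log2(TPM + 1), as colour, of the 12 genes that rose most in chicken feather (above the white horizontal line) and the 12 that fell most (below it), in all 14 libraries, with chicken left and emu right of the white vertical line. Of the upper 12, 9 are at 1 TPM or more in both chicken reticulate scale libraries; within each species, ENSGALG00000002349 and ENSGALG00000010923 are brightest in claw.

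The emu libraries give the same contrast in other samples, but both tests use the same error estimate for a gene, taken over all groups with 2 libraries. Genes called in chicken are thus partly chosen for a small error, which favours emu calls in either direction. The chicken and emu calls are therefore not independent. In emu, limma called 244 of the 6790 genes (3.59%) between feather and scutate scale, 132 higher (1.94%) and 112 lower (1.65%) in feather. Of the 534 genes that rose in chicken feather, 60.7% had a positive emu difference, against 54.2% of all genes tested, and 40 were called in the same direction in emu and 16 in the opposite one. Of the 267 that fell in chicken, 72.3% had a negative emu difference, against 43.8% of all genes tested, with 31 called in the same direction and 5 in the opposite one. The median emu difference was 0.09 for the genes that rose and -0.20 for those that fell in chicken.

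Among the 12 genes that rose most in chicken feather, 5 also rose in emu feather. ENSGALG00000015205 had 94.7 and 44.2 TPM in emu feather and 0.537 and 0.082 in emu scutate scale (difference 5.67, SE 0.53, limma adjusted p 0.00071). For ENSGALG00000016899 the emu values were 42.9 and 37.5 in feather and 0.211 and 0.125 in scutate scale (5.14, SE 0.64, limma adjusted p 0.00273). ENSGALG00000015487 was at 265 and 230.3 TPM in emu feather and 12.3 and 14.8 in emu scutate scale (4.10, SE 0.54, limma adjusted p 0.00369). In these 3 genes the chicken and emu differences did not differ by limma's interaction term, with adjusted p of 0.418 to 0.702. That does not show that they were equal. With a pseudocount of 0.1 the chicken differences became 7.67 for ENSGALG00000015205, 7.07 for ENSGALG00000016899 and 8.09 for ENSGALG00000015487. The interaction of these genes at that setting is not given here. ENSGALG00000007466 rose in emu as well, by 2.77 (SE 0.45), and ENSGALG00000012290 by 2.59 (SE 0.37), both less than in chicken by the interaction term (limma adjusted p 0.00443 and 0.0479). Of the genes on in chicken feather and off in chicken scutate scale, ENSGALG00000005246 differed by 2.83 in chicken and 2.84 in emu. In emu it had 26.3 and 26.8 TPM in feather and 3.39 and 2.39 in scutate scale. Its chicken scutate scale TPM was 0.043 and 0, and with a pseudocount of 0.1 the chicken difference became 5.73. The match of the 2 values therefore depends on the pseudocount and does not show an equal change. Of the 26 genes on in chicken feather and off in chicken scutate scale, 13 were at 1 TPM or more in both emu feather libraries. Of these 13, 9 were above emu scutate scale without overlap. At 1 TPM or more in both emu scutate scale libraries were 8 of the 26, and 0 were on in emu feather and off in emu scutate scale by the limits used in chicken.

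Among the 12 that fell most, 10 had a negative emu difference, while 8 of the 12 that rose most had a positive one. Over all genes tested, 43.8% were negative and 54.2% positive in emu. Of the 12 that fell most, 1 was called in emu. ENSGALG00000010923 had 0.898 and 0.901 TPM in emu feather and 39.4 and 68.1 in emu scutate scale (difference -4.80, SE 0.28, limma adjusted p 5.36e-05). The largest fall in chicken, that of ENSGALG00000007257, had no counterpart of like size in emu. There the TPM was 0.845 and 0.295 in feather and 1.30 and 1.64 in scutate scale. The interaction term differed from 0 for 273 of the 6790 genes (4.02%), including 143 of the genes that rose and 54 of those that fell in chicken. Because the chicken difference is part of that term, choosing genes by a chicken call in the same fit favours an interaction. The counts of 143 and 54 are thus a description. The emu values were quantified against the same chicken IDs in a way not given in the sources used here.

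**Figure D5:**
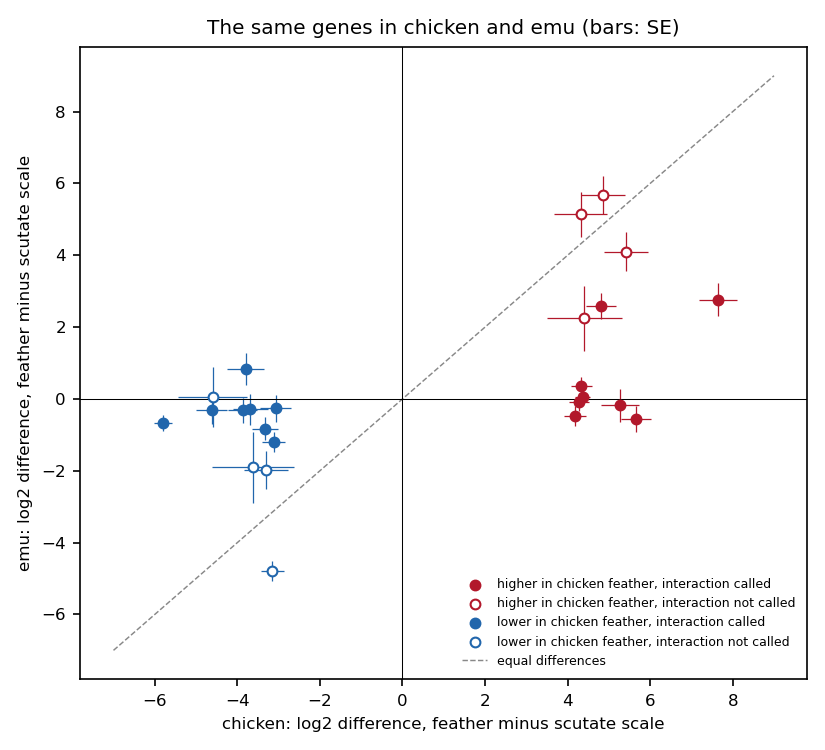
Feather minus scutate scale difference in log2(TPM + 1) in chicken (horizontal axis) and in emu (vertical axis) for the 24 genes with the largest chicken differences; bars are SE and the dashed line marks equal differences. Filled points have an interaction at an adjusted p under 0.05 (8 of the 12 red and 8 of the 12 blue genes); open points do not.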

How the data were processed

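Polyadenylated RNA was sequenced, per the labels' protocols, as strand-specific libraries from epidermis freed with dispase (10 mg/mL, 13 h, 4 °C). The submitters' processing notes name CASAVA, TopHat2 2.0.6 and HTSeq 0.5.3p9 with no role or order. Genome builds, the conversion to TPM, the assignment of emu transcripts to chicken IDs and any filters are not given in the sources used here, nor is it known whether reads shared by gene copies were split.

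The authors deposited a single table, taken here as the square root of TPM, a reading inferred from the values since no header states it. The headers mark the emu columns alone as scaled. Once squared, each emu library summed to 550000, against 500783 to 575133 in the chicken libraries. Emu and chicken values were thus not scaled alike, which matters where their TPM levels are set side by side. Values were squared, and log2(TPM + 1) was used. Differences therefore understate changes of low genes. limma 3.58.1 in R 4.3.3 (eBayes with trend) was fitted to all 14 libraries as 8 group means with 6 residual degrees of freedom. P-values were adjusted by Benjamini-Hochberg over the 6790 genes. On simulated data of 6790 genes, limma recovered 178 of 200 genes changed by 1.5 log2 units, with 10 false calls. It recovered 140 of 200 changed by 1, with 7 false calls. These values hold for the simulated spread, and how they carry over to the real libraries was not tested. Python 3.11.15, numpy 2.4.6, pandas 2.3.3 and matplotlib 3.10.9 were used.

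Genes named are the 12 largest called differences without overlap in each direction, the most abundant, up to 5 a side, on in one and off in the other, and the 5 most abundant called genes in each direction. ENSGALG00000014744, the genes at the filter limit and those named as exceptions were chosen after their values were seen. The comparison, rules and lists were chosen with earlier results of these data known. Pathway and marker lists, set by symbol, could not be used because no ID matched a symbol. The replicate numbers come from the titles, and nothing in the labels says that they pair libraries.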

Additional observations from a re-analysis of the deposited data

Results flagged for a closer look

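By limma's interaction term, 273 of the 6790 genes had a feather minus scutate scale contrast in chicken that differed from the one in emu. Of the 39 genes named by rule, 18 were among them, with adjusted p from 5.73e-05 to 0.0479. Values below are the chicken minus emu difference of the feather minus scutate scale contrast, in log2(TPM + 1).

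It was above 0, with a larger chicken feather excess, in 8 genes: 6.22 for ENSGALG00000003957, 5.45 for ENSGALG00000011264, 4.88 for ENSGALG00000007466, 4.66 for ENSGALG00000006905, 4.36 for ENSGALG00000016575, 4.30 for ENSGALG00000016943, 3.96 for ENSGALG00000008263 and 2.22 for ENSGALG00000012290. In the first, the chicken difference was 5.66 and the emu one -0.56, with an emu feather TPM of 0.709 and 0.771. Across emu feather and scutate scale, ENSGALG00000016943 was at 0 to 0.150 TPM and ENSGALG00000006905 at 0.244 to 0.885, low in both groups. Of all called genes, 74 that rose and 12 that fell in chicken were under 1 TPM in all 4 of these emu libraries. The same count over all genes tested is not given, so whether these numbers are unusual was not tested. The part of the assignment of emu transcripts to chicken IDs in such low values was not tested. ENSGALG00000016575 and ENSGALG00000008263 were well expressed in both emu groups, at 71.1 to 97.0 TPM and 15.9 to 23.9 TPM, so the absence of a called emu difference there did not come with a low level.

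It was below 0 in 10 genes: -5.12 for ENSGALG00000007257, -4.63 for ENSGALG00000010657, -4.31 for ENSGALG00000019647, -3.56 for ENSGALG00000002349, -3.40 for ENSGALG00000016153, -2.92 for ENSGALG00000010773, -2.81 for ENSGALG00000001343, -2.50 for ENSGALG00000005442, -1.93 for ENSGALG00000010258 and -1.54 for ENSGALG00000011973. ENSGALG00000010657 had 12.8 and 23.3 TPM in chicken feather and 251 and 259 in chicken scutate scale, against 627 and 591 in emu feather and 337 and 347 in emu scutate scale. The estimated emu difference had the opposite sign in 6 of the 18 genes, but none of these 6 passed the emu test (limma adjusted p 0.405 to 0.933). Choosing genes by a large chicken difference favours a smaller one in emu.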

How the results depend on the processing

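The count of 801 called genes varied with the samples in the fit: it was 421 with the 8 chicken libraries, 1334 with the feather and scutate scale libraries of both species (chosen after seeing the data), and 273 to 538 when 1 of the 4 libraries was left out, the highest of these being within 1.5 times of 801; there the lone library is assumed to vary like the other groups. A difference of at least 1 log2 unit gave 472. Leaving aside the size requirement and the settings chosen after seeing the data, every setting shared 189 of the calls, 118 higher and 71 lower in feather. The fit of the 4 libraries alone called 700 genes, 542 of them among the 801, and the chicken libraries without claw gave 818. The same-numbered replicate differences correlated at -0.208 across genes, so the numbers are not taken to pair libraries; the replicate block gave 785 calls and the crossed block, chosen after seeing the data, 859. Scaling to a common total, also chosen then, gave 773. With both species' feather and scutate scale libraries alone, the emu calls were 442 in place of 244 and the interaction calls 640 in place of 273. Genes without overlap numbered 391 with a gap of at least 1 log2 unit, 4193 with median-ratio rescaling and 5046 to 5847 with a library left out. Genes on in one appendage and off in the other numbered 5 with on at a TPM of 5, 3 with off as a listed 0 and 118 with off as under 0.5. With a library left out they numbered 40 to 55. Leaving out a library can only add genes to either count, so these rises do not test the result.

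Of 660 values of the 39 named genes under the alternatives, 0 changed sign and 109 lost the call. The 39 genes do not overlap between the groups, so leaving out a library or changing the pseudocount cannot reverse a sign. Settings that alter only the filter, the error estimate or the other groups leave the difference as it was. The lack of sign changes was thus largely fixed in advance and adds no support. The call held under every alternative run for 24 of the 39 genes. The 15 others include all 10 abundant genes. The causes were not tested. TPM keeps no depth, so no floor was set for a gene listed at 0. The settings for gene lists were not run, since no list was usable.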

Other observations

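Some genes that rose in chicken feather differed widely between the chicken claw libraries. ENSGALG00000004909 had 0.571 TPM in claw replicate 1 and 28.2 in replicate 2, ENSGALG00000010949 had 2.54 and 22.9, and ENSGALG00000015487 had 0.017 and 3.62. Of the 534 genes that rose, 10 were at 1 TPM or more in claw replicate 2 and under 0.1 in replicate 1, and 0 showed the reverse. Over all 6790 genes tested these counts were 32 and 3. Because the spread of a gene was estimated over all groups with 2 libraries, such claw differences enter the error of the feather and scutate scale contrast.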
